A study of Mus musculus with 12 samples.

Results

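Of the 12 colon mRNA samples of a mouse series, 6 came from animals given DSS, and these 6 are described here as the effect of a high-fat diet in DSS-treated colon. They were chosen by their treatment label alone: 3 libraries labelled HFD+2% DSS (HFD+DSS below) and 3 labelled CD+2% DSS (CD+DSS below). All samples were wild-type C57BL/6J colon, so both groups of the comparison shared genotype, strain, tissue and DSS at 2%, and differed by the label of the diet. The labels abbreviate the control diet as CD without spelling it out. The age and sex of the mice and the length of the diet and of the DSS course were left unstated in these sources. The other 6 samples, 3 labelled CD and 3 labelled HFD without DSS, entered the same fit, where they lent their spread between replicates to every p-value, and they show where the diet difference was another one. The labels do not tell whether separate animals or cages gave the 3 replicates, so the p-values measure only the spread between these samples, which may in part be technical.

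DSS is dextran sulfate sodium, a sulfated polysaccharide that injures the colonic epithelium when given in drinking water and is a standard way to provoke colitis in mice. The injured colon loses part of its mucus layer, recruits neutrophils, monocytes and lymphocytes, induces antibacterial and acute-phase genes in its epithelium, and is re-covered by epithelium from surviving crypts. A high-fat diet is known to raise bile acid flow to the colon and to switch on fatty acid receptor targets in the epithelium. Autophagy, the delivery of cytoplasm and bacteria to lysosomes, is active in goblet cells and enterocytes, and variants of its genes are linked to inflammatory bowel disease. The question of the comparison is whether the diet altered the transcriptome of the DSS-injured colon, the autophagy genes included.

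The unit is FPKM, fragments scaled to gene length and to the size of the library, which allows levels of different genes to be set side by side. The test took the genes that reached FPKM 1 in 3 or more DSS libraries, 13232 of 54532 in the table. Differences are HFD+DSS minus CD+DSS on the log2(FPKM + 1) scale with their standard error (SE), which understates differences of genes near FPKM 1. The p-values are from limma, adjusted over all 13232 genes where so named, and replicates are listed as 1, 2 and 3 in each group. The labelled tissue was borne out by its markers: the colon-enriched genes Muc2 and Guca2a were at FPKM 304 or more in each of the 6 libraries. The small intestine enterocyte markers summed to only 64.3 to 109.95 over the 6 libraries, against 6843 to 18315 for the absorptive colonocyte markers. Fragments recovered from the FPKM numbered 14657796 to 17932280 on genes per library.

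Hox genes of the posterior gut, which mark position along the colon, were higher in HFD+DSS. Hoxb13, a Hox gene of the most posterior gut (ENSMUSG00000049604, chromosome 11, 96194316 to 96197447), stood at FPKM 22.6, 0.0336 and 0.122 in CD+DSS against 27.4, 37.8 and 62.8 in HFD+DSS. Hoxd13 stood at 1.11, 0 and 0 in CD+DSS against 5.44, 5.03 and 21.7 in HFD+DSS, and Hoxa13 at 16.8, 1.59 and 10.04 in CD+DSS against 13.7, 9.25 and 8.29 in HFD+DSS. The HFD+DSS libraries were thus high in Hoxb13 and Hoxd13 throughout, while CD+DSS held 1 library with Hoxb13 and 2 nearly without it. The mean log2 level of the 3 posterior Hox genes was 4.04 ± 0.46 (SD, n = 3) in HFD+DSS and 1.65 ± 1.45 in CD+DSS, a difference of 2.39 (exact permutation test, two-sided p = 0.1, the smallest that 3 against 3 allows). Hoxb6, expressed further forward along the body axis, overlapped between the groups at 12.5, 45.5 and 22.5 in CD+DSS against 11.4, 19.4 and 36.1 in HFD+DSS. Whether the sampled stretch of colon differed between the groups was not tested, and the diet and the posterior Hox level cannot be told apart with these 6 libraries. For that reason the difference of a gene with the mean posterior Hox level as a covariate in the fit is given beside the main one, as Hox-adjusted, where the 2 differ by over 1.5 times or in sign.

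**Figure D1:**
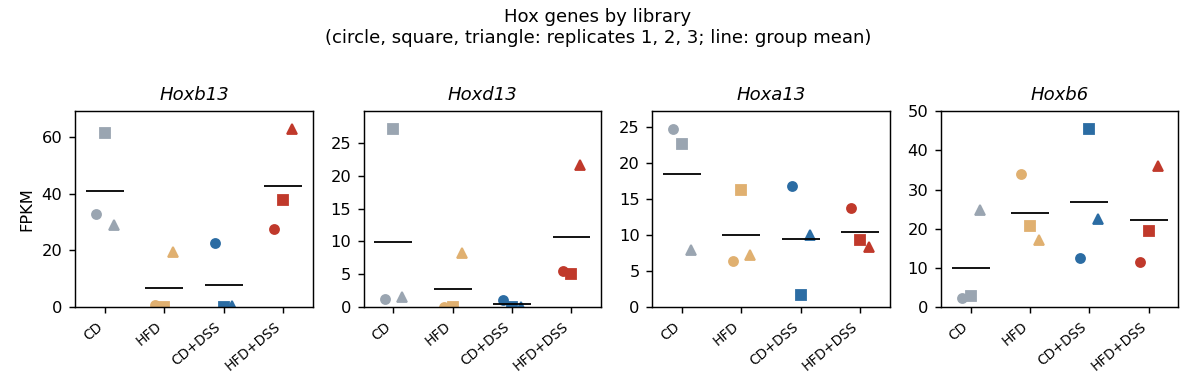
FPKM of 4 Hox genes (vertical axis) in the 4 groups (horizontal axis), 1 point per library and a line at the group mean. Hoxb13 was at 27.4 to 62.8 in HFD+DSS, and at 22.6, 0.0336 and 0.122 in CD+DSS.

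Other differences between the libraries were smaller or cut across the diets. Mitochondrially encoded genes took 7.65% to 11.8% of the summed FPKM in CD+DSS and 8.45% to 14.5% in HFD+DSS. In a principal component analysis of the 6 libraries the first component held 32.9% of the variance and set HFD+DSS replicate 3 (score 45.7) against HFD+DSS replicate 1 (-32.1), so the 2 most distant libraries belonged to the same diet. HFD+DSS replicate 3 had the most smooth muscle RNA, with a summed marker FPKM of 4373 against 944 to 1657 in the other 5. HFD+DSS replicate 1 had the most interferon-response RNA, with 2449 against 438 to 1446.

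No gene passed the limma test between HFD+DSS and CD+DSS at an adjusted p under 0.05, 0% of 13232, and the smallest adjusted p was 0.471. At an unadjusted p under 0.05 there were 898 genes, where the threshold alone would give 662. The excess depended on the 6 samples without DSS in the fit: the 6 DSS samples alone gave 584 genes, and TPM scaling 678. Of the 898, 368 were higher in HFD+DSS, 2.78% of the genes tested, and 530 were lower, 4.01%. In 453 genes, 3.42%, every HFD+DSS library lay above every CD+DSS library, and in 805 genes, 6.08%, every one lay below, together 9.51%. Of all 13232 genes, 7388 had a negative and 5844 a positive difference. These shares are the background for the list counts below. The voom method on the recovered fragments called 0 genes and found 733 at an unadjusted p under 0.05, of which 42.3% were lower in HFD+DSS against 59.0% of the 898. Upper-quartile scaling gave 40.7% lower, so the excess of lower genes over higher ones depended on the scaling. In the Hox-adjusted fit 217 genes had an unadjusted p under 0.05, and without HFD+DSS replicate 2 there were 1485. No member of any of the 48 gene lists passed the limma test. The genes below are therefore described by their values in each library, and none is called changed.

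The inducible heat shock genes Hspa1a and Hspa1b had the smallest p-values among lower genes of sizeable level, with mean FPKM in HFD+DSS at 0.272 and 0.344 times that in CD+DSS. They encode the stress-inducible Hsp70 chaperone and lie side by side on chromosome 17. Hspa1a (ENSMUSG00000091971, chromosome 17, 34969190 to 34972156) was at FPKM 22.4, 22.6 and 18.9 in CD+DSS against 7.29, 3.81 and 6.23 in HFD+DSS. The 3 libraries of each group lay close together and far from the other group, for a difference of -1.75 ± 0.27 (limma, adjusted p = 0.471). Hspa1b (ENSMUSG00000090877, chromosome 17, 34956436 to 34959238) was at 74.6, 64.6 and 61.7 in CD+DSS against 30.1, 13.5 and 25.5 in HFD+DSS, a difference of -1.57 ± 0.33 (limma, adjusted p = 0.63). The coding sequences of the 2 genes are nearly identical, so their counts may be shared between them and their separate values are uncertain. Without DSS, Hspa1a was at 4.10, 4.72 and 7.70 in CD and 2.84, 1.89 and 4.09 in HFD, so CD+DSS was the group that stood high. Weighting libraries by their quality (limma's array weights) gave -2.09 and -2.12, with adjusted p = 0.00259 and 0.0139, so that both passed under this setting.

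The stretches just upstream of the 2 genes are shown because the pair differed together and both carry a binding motif of heat shock factor, the activator of these genes. Each is the 250 bases before the start site, written on the gene's own minus strand from RefSeq (GRCm38.p6), with the motif in capitals.
Hspa1a, chr17:34972157-34972406: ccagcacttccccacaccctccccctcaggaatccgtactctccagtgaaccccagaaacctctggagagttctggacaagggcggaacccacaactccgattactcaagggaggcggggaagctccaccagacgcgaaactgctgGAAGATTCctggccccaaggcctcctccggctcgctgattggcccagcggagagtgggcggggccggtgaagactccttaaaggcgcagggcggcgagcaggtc
Hspa1b, chr17:34959239-34959488: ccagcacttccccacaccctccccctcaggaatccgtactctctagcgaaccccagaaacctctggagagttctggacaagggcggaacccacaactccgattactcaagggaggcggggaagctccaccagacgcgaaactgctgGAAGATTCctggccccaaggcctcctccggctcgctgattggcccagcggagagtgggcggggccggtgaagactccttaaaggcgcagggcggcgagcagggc
The motif searched was GAANNTTC, the inverted pair that forms the core of a heat shock element, which reads the same on both strands. It occurred once in each window, as GAAGATTC at base 147 of 250, and in 6.69% of 32851 promoter windows of this kind. The 2 windows differed at 3 bases, an identity of 98.8%. The match describes the sequence and shows no binding in these samples.

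Other chaperones did not share the size of this difference. Of the 16 heat shock chaperones tested, Hspa1a and Hspa1b included, 7 had a positive and 9 a negative difference. The median was -0.11 against -0.033 over all genes. The groups did not overlap in 4 lower members, Hspa1a and Hspa1b among them, and in 0 higher ones, against 6.08% and 3.42% of all genes. Hsph1, an Hsp110 co-chaperone, was at 30.9, 33.8 and 43.1 in CD+DSS against 30.4, 16.2 and 24.9 in HFD+DSS (-0.60 ± 0.31), and Dnajb1, a co-chaperone of Hsp70, at 36.1, 37.7 and 34.6 in CD+DSS against 39.7, 21.9 and 23.6 in HFD+DSS (-0.38 ± 0.20), where HFD+DSS replicate 1 lay above all of CD+DSS in the latter. The small heat shock protein gene Hspb8 pointed the other way, at 15.3, 8.62 and 10.6 in CD+DSS against 20.1, 11.1 and 32.9 in HFD+DSS (0.75 ± 0.32, Hox-adjusted 0.48). The list median ran from -0.23 (without HFD+DSS replicate 3) to 0.042 (without HFD+DSS replicate 2) when 1 library was left out, and was -0.29 in the Hox-adjusted fit and -0.43 with array weights.

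Genes of goblet cells, the mucus-secreting cells of the crypt, were mostly lower in HFD+DSS. Of 17 tested, 13 had a negative and 4 a positive difference, with a median of -0.80. The groups did not overlap in 9 lower members and in 0 higher ones, against 6.08% and 3.42% of all genes. Muc2, the gel-forming mucin of the colon (ENSMUSG00000025515, chromosome 7, 141690340 to 141754693), was at FPKM 869.98, 1268 and 671 in CD+DSS against 401, 304 and 365 in HFD+DSS, a difference of -1.35 ± 0.31 (limma, adjusted p = 0.671). The lowest CD+DSS library thus held 671 against 401 in the highest HFD+DSS library. In bulk tissue, fewer cells of a type and less RNA per cell cannot be told apart, here and in every cell type list below.

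The transcription factors of the secretory lineage were lower beside their products. Atoh1, which commits progenitors to secretory fate, was at 31.4, 40.7 and 32.7 in CD+DSS against 15, 28.7 and 16.4 in HFD+DSS (-0.82 ± 0.23). Spdef, which drives goblet maturation, was at 46, 44.7 and 49.4 in CD+DSS against 16.6, 29 and 22.1 in HFD+DSS (-1.05 ± 0.32). In both genes the groups did not overlap. Agr2, a disulfide isomerase needed to fold mucin, was at 828, 902 and 844 in CD+DSS against 389, 659 and 328 in HFD+DSS (-0.97 ± 0.30, Hox-adjusted -0.62), and Ern2, the endoplasmic reticulum stress sensor of mucous cells, at 21.8, 18 and 21.8 in CD+DSS against 6.75, 16.6 and 10.7 in HFD+DSS (-0.88 ± 0.31, Hox-adjusted -0.51). B3gnt6, which builds the core 3 glycans of colonic mucin, was at 14.5, 22.8 and 17.8 in CD+DSS against 2.82, 9.40 and 3.38 in HFD+DSS (-1.77 ± 0.49, Hox-adjusted -0.70). Sytl2, a vesicle-tethering protein gene, was at 9.77, 7.67 and 6.99 in CD+DSS against 4.82, 6.29 and 3.14 in HFD+DSS (-0.70 ± 0.20). All 4 showed every HFD+DSS library below every CD+DSS library.

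Not every abundant goblet product followed. Zg16, a lectin that aggregates gram-positive bacteria, was at 1645, 1262 and 721 in CD+DSS against 2682, 1596 and 964 in HFD+DSS (0.49 ± 0.52, Hox-adjusted -0.057), and the trefoil peptide gene Tff3 at 1132, 1171 and 656 in CD+DSS against 1663, 1234 and 889 in HFD+DSS (0.36 ± 0.43, Hox-adjusted 0.016). Fcgbp, a mucus-structure protein gene, was at 273, 145 and 101 in CD+DSS against 233, 208 and 119 in HFD+DSS (0.17 ± 0.51, Hox-adjusted -0.28). These 3 overlapped between the groups, and because they are among the most abundant members the summed goblet FPKM overlapped too, at 7016, 7275 and 4714 in CD+DSS against 7123, 5734 and 3683 in HFD+DSS. The goblet median was -0.42 in the Hox-adjusted fit and -0.29 with array weights, and -0.62 to -1.03 when 1 of the 6 libraries was left out.

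Among the 12 lower genes of smallest p were others that epithelium expresses, while the epithelial genes Slpi, Slc7a9 and Cldn8 were higher in HFD+DSS. Guca2a, the gut peptide guanylin that stimulates fluid secretion (ENSMUSG00000023247, chromosome 4, 119637704 to 119639471), was at 1530.5, 2213 and 1076 in CD+DSS against 574, 926 and 555 in HFD+DSS, a difference of -1.21 ± 0.33 (limma adjusted p = 0.671). Sdc1, the heparan sulfate proteoglycan syndecan-1 of epithelium and plasma cells, was at 74.5, 86.7 and 75.3 in CD+DSS against 42.4, 54.4 and 45.5 in HFD+DSS (-0.73 ± 0.17). Both groups were tight for Sdc1, with SDs of 6.81 and 6.24 FPKM. Dpep1, a membrane dipeptidase, was at 102, 177 and 95.2 in CD+DSS against 52.9, 67.7 and 43.6 in HFD+DSS (-1.14 ± 0.29, Hox-adjusted -0.66), and Bace2, a membrane protease, at 9.51, 13.9 and 8.13 in CD+DSS against 3.80, 6.47 and 3.67 in HFD+DSS (-1.03 ± 0.26, Hox-adjusted -0.55). The cysteine metabolism enzyme gene Cbs (-1.23 ± 0.32, Hox-adjusted -0.71), the kinase gene Ripk4 (-0.57 ± 0.15), the microtubule linker Clip2 (-0.59 ± 0.16) and the Rab regulator Tbc1d2 (-0.51 ± 0.12) belonged to the same 12, with no overlap between the groups in any of those named.

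**Figure D2:**
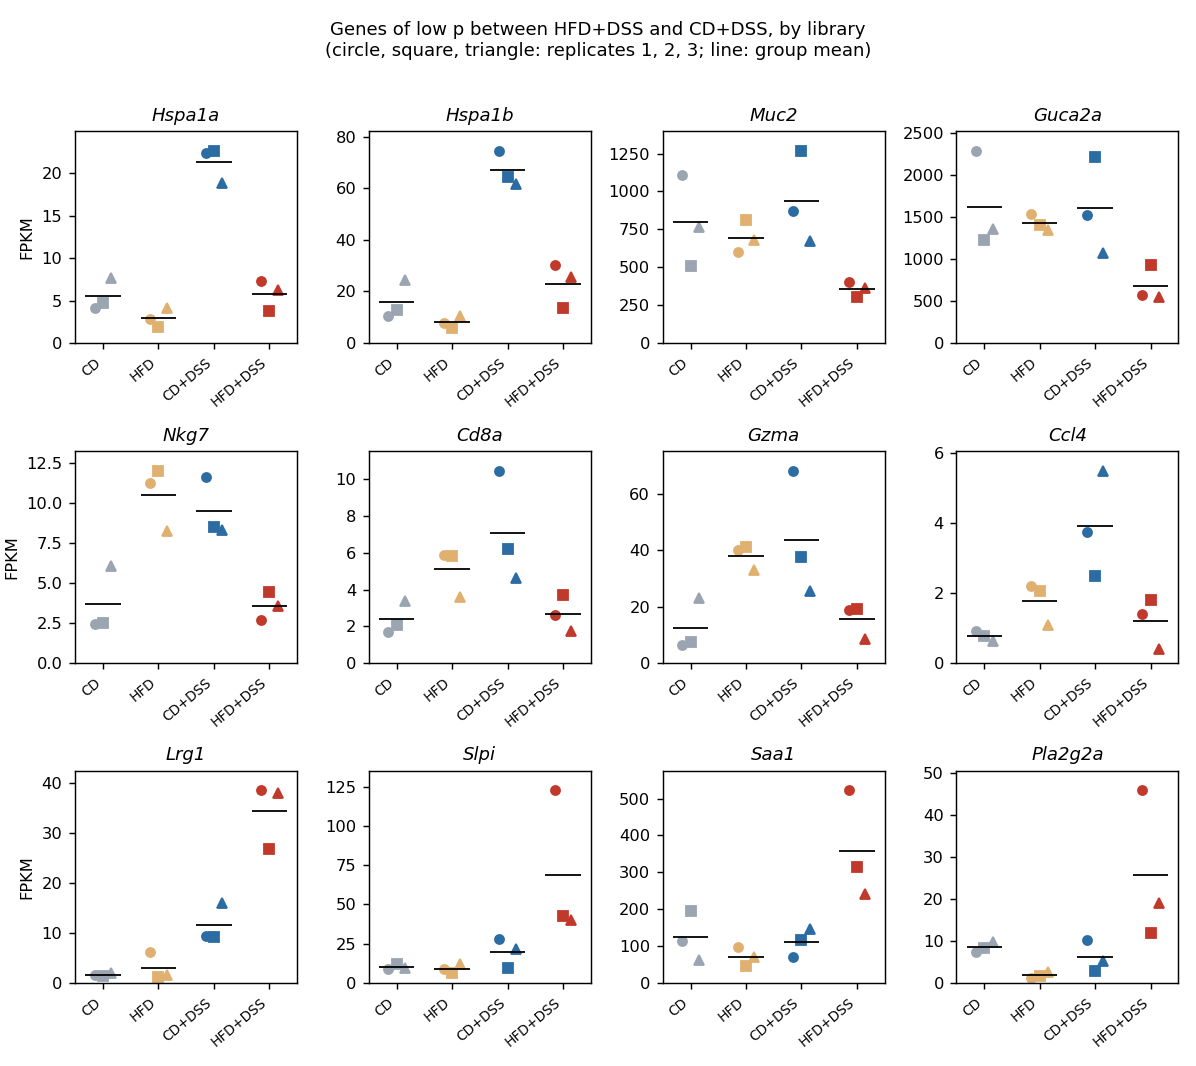
FPKM (vertical axis, from 0) of 12 genes in the 4 groups (horizontal axis), 1 point per library and a line at the group mean. Hspa1a, Hspa1b, Muc2 and Guca2a were lower in every HFD+DSS than in every CD+DSS library, and Nkg7, Cd8a, Gzma and Ccl4 were so too but higher in every HFD than in every CD library.

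Cytotoxic lymphocyte genes were lower in HFD+DSS than in CD+DSS. Of 16 T and NK cell markers tested, 15 had a negative difference and 1 a positive one, with a median of -0.54. The groups did not overlap in 7 lower members and in 0 higher ones, against 6.08% and 3.42% of all genes. Nkg7, a cytotoxic granule protein gene (ENSMUSG00000004612, chromosome 7, 43437073 to 43438249), was at FPKM 11.6, 8.51 and 8.29 in CD+DSS against 2.65, 4.43 and 3.55 in HFD+DSS, a difference of -1.21 ± 0.28 (limma, adjusted p = 0.671). The granule protease gene Gzmb was at 37.7, 14.9 and 13.3 in CD+DSS against 6.57, 6.98 and 4.09 in HFD+DSS (-1.61 ± 0.47), and Gzma at 68.3, 37.6 and 25.5 in CD+DSS against 18.6, 19.1 and 8.54 in HFD+DSS (-1.41 ± 0.47). CD+DSS replicate 1 was the highest library in all 3. The CD8 co-receptor genes Cd8a and Cd8b1 were at 10.5, 6.21 and 4.61 in CD+DSS against 2.60, 3.68 and 1.73 in HFD+DSS (-1.11 ± 0.30) and at 6.85, 3.00 and 3.03 in CD+DSS against 0.884, 2.01 and 0.989 in HFD+DSS (-1.16 ± 0.33). The summed marker FPKM was 195, 95.8 and 85.9 in CD+DSS against 58.1, 71.3 and 35.4 in HFD+DSS. Without CD+DSS replicate 1 the median was -0.25, with 13 of 16 negative, and with array weights it was -0.33.

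Chemokine genes, those of lymphocytes and of myeloid cells together, split in direction. Of 24 tested, 9 were higher and 15 lower in HFD+DSS, with a median of -0.22. The groups did not overlap in 2 higher and 3 lower members, against 3.42% and 6.08% of all genes. The chemokine gene Ccl4 was at 3.74, 2.47 and 5.49 in CD+DSS against 1.39, 1.79 and 0.397 in HFD+DSS (-1.17 ± 0.29), Ccl5, a chemokine gene of T and NK cells, at 53, 21.6 and 23.4 in CD+DSS against 13.7, 22.6 and 8.35 in HFD+DSS (-1.06 ± 0.44), and Ccl9, a myeloid chemokine gene, at 12.6, 15.2 and 19.1 in CD+DSS against 8.03, 11.5 and 4.54 in HFD+DSS (-0.94 ± 0.26, Hox-adjusted -0.55). Ccl4 and Ccl9 did not overlap, and in Ccl5 a single HFD+DSS library reached the CD+DSS range. Ccl21a, a chemokine of lymphatic vessels and lymphoid tissue that guides CCR7-bearing cells, was higher at 13.9, 2.03 and 5.50 in CD+DSS against 48, 95.1 and 25.2 in HFD+DSS (2.90 ± 0.77, Hox-adjusted 1.60). Its annotation lies on an unplaced scaffold beside near-identical copies, so its level is uncertain. The chemokine median ran from -0.44 (without CD+DSS replicate 2) to 0.067 (without CD+DSS replicate 3) when 1 library was left out, and was -0.13 in the Hox-adjusted fit. B and plasma cell markers were 4 positive and 8 negative of 12 (median -0.20), with medians of -0.47 (without HFD+DSS replicate 2) to 0.064 (without HFD+DSS replicate 3) when 1 library was left out, and -0.44 in the Hox-adjusted fit and 0.091 with array weights. MHC class II genes were 3 positive and 7 negative of 10 (median -0.15). All 10 were positive without CD+DSS replicate 1, and 0 of 10 without HFD+DSS replicate 1 or in the Hox-adjusted fit. Their median ran from -0.38 (without HFD+DSS replicate 1) to 0.16 (without CD+DSS replicate 1) when 1 library was left out, and was -0.38 in the Hox-adjusted fit and -0.42 with array weights.

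Several acute-phase and mucosal defence genes were higher in HFD+DSS, while the lists they belong to were split nearly evenly. Lrg1, a leucine-rich glycoprotein secreted in inflammation (ENSMUSG00000037095, chromosome 17, 56119678 to 56122001), was at FPKM 9.34, 9.10 and 16.1 in CD+DSS against 38.6, 26.7 and 38.1 in HFD+DSS, a difference of 1.53 ± 0.38 (limma, adjusted p = 0.671). Saa1, serum amyloid A (ENSMUSG00000074115, chromosome 7, 46740497 to 46742980), was at 68.9, 116 and 147 in CD+DSS against 522, 314 and 241 in HFD+DSS (1.68 ± 0.45). Lbp, which carries lipopolysaccharide to its receptor, was at 2.66, 0.491 and 2.25 in CD+DSS against 9.26, 3.04 and 5.41 in HFD+DSS (1.30 ± 0.39), and Cd14, that co-receptor, at 44, 38.6 and 43 in CD+DSS against 57, 54.2 and 63.6 in HFD+DSS (0.47 ± 0.17, Hox-adjusted 0.14). All 4 had every HFD+DSS library above every CD+DSS library. Of the 17 STAT3 and acute-phase genes tested, 9 had a positive and 8 a negative difference (median 0.077). The interleukin 4 receptor gene Il4ra was lower without overlap, at 25.9, 24.5 and 23.7 in CD+DSS against 20.05, 17.6 and 14.5 in HFD+DSS (-0.49 ± 0.19, Hox-adjusted -0.23). The list median ran from -0.13 (without CD+DSS replicate 2) to 0.27 (without HFD+DSS replicate 3) when 1 library was left out, and was -0.01 in the Hox-adjusted fit and -0.058 with array weights.

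The epithelial defence list was split in direction. Of 21 tested, 11 were positive and 10 negative, with a median of 0.072. The groups did not overlap in 4 higher and 4 lower members, against 3.42% and 6.08% of all genes. That median ran from -0.10 (without CD+DSS replicate 1) to 0.33 (without HFD+DSS replicate 3) when 1 library was left out, and was 0.32 in the Hox-adjusted fit and 0.18 with array weights. Slpi, a secreted inhibitor of neutrophil elastase, was at 28.1, 9.17 and 21.6 in CD+DSS against 123, 42.9 and 40.002 in HFD+DSS (1.69 ± 0.45, Hox-adjusted 1.04). Pla2g2a, a secreted phospholipase that kills bacteria, was at 10.1, 2.79 and 5.20 in CD+DSS against 45.9, 11.9 and 19.1 in HFD+DSS (1.85 ± 0.45, Hox-adjusted 1.16). C57BL/6 mice are known to carry a disrupted copy of this gene, so its transcript is no measure of enzyme. Wfdc18, a small whey-acidic-domain protein gene, was at 1.93, 3.22 and 3.79 in CD+DSS against 12.7, 3.97 and 7.13 in HFD+DSS (1.08 ± 0.31).

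On the lower side, Retnlb, a goblet-cell resistin-like protein gene, was at 326, 493 and 501 in CD+DSS against 163, 192 and 92.7 in HFD+DSS (-1.59 ± 0.52, Hox-adjusted -0.59). The antimicrobial ribonuclease gene Ang4 was at 113, 41.4 and 89.2 in CD+DSS against 21.8, 16.8 and 2.88 in HFD+DSS (-2.70 ± 1.09, Hox-adjusted -1.08), and the lectin gene Itln1, low in all 6, at 1.96, 4.29 and 1.88 in CD+DSS against 0.230, 0.740 and 0.551 in HFD+DSS (-1.25 ± 0.82, Hox-adjusted 0.11). None of these overlapped, and each was nearer 0 in the Hox-adjusted fit. Sprr1a, a cornified-envelope protein gene of injured epithelium, was at 39.8, 46.7 and 30.6 in CD+DSS against 15, 19.97 and 9.42 in HFD+DSS (-1.38 ± 0.40). The antibacterial lectin Reg3g, a strong responder to DSS, overlapped at 68.7, 589 and 519.8 in CD+DSS against 797, 559 and 294 in HFD+DSS (0.87 ± 0.86, Hox-adjusted 2.28), as did the siderophore-binding gene Lcn2 at 3.74, 3.25 and 14.3 in CD+DSS against 4.20, 5.24 and 2.82 in HFD+DSS (-0.44 ± 0.40, Hox-adjusted -0.15). The membrane mucin gene Muc1 was at 3.93, 1.17 and 1.03 in CD+DSS against 9.00, 2.93 and 4.89 in HFD+DSS (1.14 ± 0.49, Hox-adjusted 0.32).

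Neutrophil markers showed no shared direction, with 3 positive and 4 negative of 7 tested. S100a8, the calprotectin subunit of neutrophils, was at 1.18, 0.427 and 8.50 in CD+DSS against 22.3, 3.49 and 1.89 in HFD+DSS (1.12 ± 0.75), with HFD+DSS replicate 1 highest and the other libraries interleaved. Cd177, a neutrophil surface gene that colonic epithelium expresses too, was lower without overlap at 132, 73.3 and 67.5 in CD+DSS against 32.2, 64.3 and 29.2 in HFD+DSS (-1.12 ± 0.32). It stood at 129, 90.8 and 109 in CD and 45.5, 39.8 and 33 in HFD without DSS. The summed neutrophil marker FPKM was 245, 116 and 179 in CD+DSS against 633, 181 and 131 in HFD+DSS. Monocyte and macrophage markers were 3 positive and 13 negative of 16 (median -0.20). Without CD+DSS replicate 1 they were 11 positive and 5 negative, and without CD+DSS replicate 2 the negative ones were 15. Their median ran from -0.54 (without CD+DSS replicate 2) to 0.10 (without CD+DSS replicate 1) when 1 library was left out, and was -0.046 with array weights.

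Inflammatory cytokine genes had no shared direction. Of 19 listed, 8 reached the level to be tested, and 4 were positive and 4 negative. The groups did not overlap in 1 higher member and in 0 lower ones, against 3.42% and 6.08% of all genes. The summed FPKM of the 19 was 89.1, 65.8 and 124 in CD+DSS against 210, 103 and 80.9 in HFD+DSS. Il1b, the main product of the inflammasome, was at 10.5, 5.21 and 26.8 in CD+DSS against 8.77, 5.64 and 1.43 in HFD+DSS (-1.22 ± 0.55), and the epithelial repair cytokine gene Il11 at 2.57, 2.72 and 16.9 in CD+DSS against 0.717, 3.67 and 1.22 in HFD+DSS (-1.25 ± 0.54). The prostaglandin synthase gene Ptgs2 was at 3.58, 2.80 and 13.9 in CD+DSS against 2.86, 4.02 and 0.892 in HFD+DSS (-0.94 ± 0.49). In these 3, CD+DSS replicate 3 alone stood far above the rest, and the other 5 libraries overlapped. Tnf was at 4.12, 2.94 and 4.09 in CD+DSS against 6.84, 3.92 and 2.17 in HFD+DSS (0.084 ± 0.28), and Il6 did not reach the minimum level.

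Genes of the collagenase family followed the same library. Of 13 matrix metalloproteinases and inhibitors tested, 10 were lower and 3 higher in HFD+DSS, with a median of -0.51. In 0 of them did the groups not overlap, against 9.51% of all genes in either direction. Mmp10 (stromelysin-2) was at 12.2, 19.7 and 52 in CD+DSS against 4.45, 17 and 1.52 in HFD+DSS (-1.96 ± 0.62, Hox-adjusted -1.25) and Mmp13 (collagenase-3) at 8.57, 13.7 and 23.1 in CD+DSS against 5.86, 9.43 and 2.12 in HFD+DSS (-1.31 ± 0.44, Hox-adjusted -0.72). The median ran from -0.68 (without CD+DSS replicate 2) to -0.16 (without CD+DSS replicate 3) when 1 library was left out, and was -0.28 in the Hox-adjusted fit and -0.32 with array weights.

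The direction of the interferon-response genes depended on which libraries were kept. Their median difference was -0.042 with 14 of 32 positive, and -0.67 with 0 of 32 positive once HFD+DSS replicate 1 was left out. It was -0.49 without CD+DSS replicate 3 and 0.38 without HFD+DSS replicate 2, and -0.20 in the Hox-adjusted fit and -0.66 with array weights. Their summed FPKM was 1411, 1446 and 506 in CD+DSS against 2449, 438 and 715 in HFD+DSS. The master regulator gene Irf7 was at 78.2, 159 and 34.4 in CD+DSS against 73.7, 26.8 and 33.8 in HFD+DSS (-0.88 ± 0.50, Hox-adjusted -0.47).

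Epithelial junction genes and markers of wound-associated epithelium were more often lower than higher. Of 19 junction genes tested, 17 had a negative difference, with a median of -0.28. Against 6.08% of all genes, 4 lower members did not overlap. Among these were the claudin genes Cldn4 at 30.05, 57.6 and 41.8 in CD+DSS against 17.8, 25.3 and 8.19 in HFD+DSS (-1.37 ± 0.45), Cldn23 at 32.9, 52.2 and 25.5 in CD+DSS against 19.7, 23.3 and 11.5 in HFD+DSS (-0.98 ± 0.30, Hox-adjusted -0.65) and Cldn15 at 49.2, 81.8 and 72.6 in CD+DSS against 25.6, 46.5 and 47 in HFD+DSS (-0.78 ± 0.30, Hox-adjusted -0.23). Cldn15 forms a cation channel in the tight junction, and Cldn4 is found in surface epithelium. Cldn8, a sealing claudin of the distal colon, pointed the other way at 39.6, 13.7 and 11 in CD+DSS against 48.2, 49.8 and 37.8 in HFD+DSS (1.25 ± 0.53, Hox-adjusted -0.036). The junction median was -0.14 without HFD+DSS replicate 3 and -0.082 with array weights.

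Of 19 wound-associated epithelium genes, 13 were lower (median -0.33), with 4 lower and 1 higher without overlap. Over all genes, 6.08% were lower and 3.42% higher without overlap, and 7388 of 13232 had a negative difference. Emp1, a membrane protein gene of regenerating epithelium, was at 232, 348 and 238 in CD+DSS against 206, 152 and 57.1 in HFD+DSS (-1.14 ± 0.45), with HFD+DSS replicate 3 lowest. Without that library 11 of the 19 were higher with a median of 0.074, and the median was -0.12 without CD+DSS replicate 1 and -0.15 without CD+DSS replicate 3.

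Autophagy genes were slightly lower in HFD+DSS across most of the list, and no member passed the test. Of 41 tested, 35 had a negative and 6 a positive difference, with a median of -0.15 against -0.033 over all genes. The groups did not overlap in 8 lower members and in 0 higher ones, against 6.08% and 3.42% of all genes. A negative difference was found in 7388 of all 13232 genes. Transcript levels do not measure autophagic flux.

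The 6 members of smallest p act at several steps of the pathway. Becn1, the scaffold of the lipid kinase that nucleates the autophagosome, was at FPKM 12.9, 14 and 12.7 in CD+DSS against 10.4, 11.2 and 10.5 in HFD+DSS (-0.28 ± 0.12, Hox-adjusted -0.14), and its partner Atg14 at 4.95, 6.29 and 4.59 in CD+DSS against 3.40, 4.57 and 3.26 in HFD+DSS (-0.41 ± 0.18, Hox-adjusted -0.16). Ambra1, a regulator of that complex, was at 9.84, 8.87 and 8.68 in CD+DSS against 6.47, 8.16 and 6.71 in HFD+DSS (-0.33 ± 0.14). These groups did not overlap, though the differences were small. Atg2a, which transfers lipid to the growing membrane, was at 8.26, 8.88 and 8.11 in CD+DSS against 4.44, 7.52 and 4.58 in HFD+DSS (-0.56 ± 0.17), and the lipid scramblase gene Atg9a at 7.67, 7.66 and 8.02 in CD+DSS against 5.39, 7.31 and 4.26 in HFD+DSS (-0.43 ± 0.15), with HFD+DSS replicate 2 close to the CD+DSS range in both. Sqstm1, the cargo receptor p62, was at 85.5, 114 and 76.7 in CD+DSS against 68.6, 75.4 and 57.9 in HFD+DSS (-0.43 ± 0.18, Hox-adjusted -0.28). The limma adjusted p of these 6 genes ran from 0.691 (Atg2a) to 0.736 (Atg14).

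Genes of the machinery that attaches LC3 to the membrane were among the rest. Atg5 was at 22, 26.3 and 20.2 in CD+DSS against 26.9, 20.6 and 15 in HFD+DSS (-0.15 ± 0.21, Hox-adjusted -0.25), Atg7, its activating enzyme, at 4.00, 4.20 and 4.02 in CD+DSS against 3.69, 3.86 and 4.31 in HFD+DSS (-0.037 ± 0.12, Hox-adjusted -0.19), and Atg16l1, the scaffold of the conjugating complex, at 3.43, 4.00 and 3.76 in CD+DSS against 3.35, 3.35 and 4.98 in HFD+DSS (0.034 ± 0.15, Hox-adjusted 0.10). Map1lc3b, the main LC3 gene, was at 18.8, 25.5 and 19 in CD+DSS against 19.2, 20.2 and 20.02 in HFD+DSS (-0.073 ± 0.14, Hox-adjusted 0.0056). The groups overlapped in all 4, and their differences changed sign under at least 1 alternative. Other genes of the same machinery, named after their values were seen, had negative differences as large as that of Becn1 in the main fit. They were -0.33 for Atg12 (Hox-adjusted -0.13), and, for the LC3-processing proteases, -0.42 for Atg4d (Hox-adjusted -0.22) and -0.32 for Atg4a. The steps were not compared with each other.

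The autophagy count rested in part on CD+DSS replicate 2. Without that library 27 of 41 were negative with a median of -0.04, and with array weights 24 were negative with a median of -0.029. It was -0.09 without HFD+DSS replicate 3 and -0.083 under upper-quartile scaling, where the median of all genes was 0.027. The summed autophagy FPKM was 722, 965 and 702 in CD+DSS against 745, 741 and 633 in HFD+DSS.

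**Figure D3:**
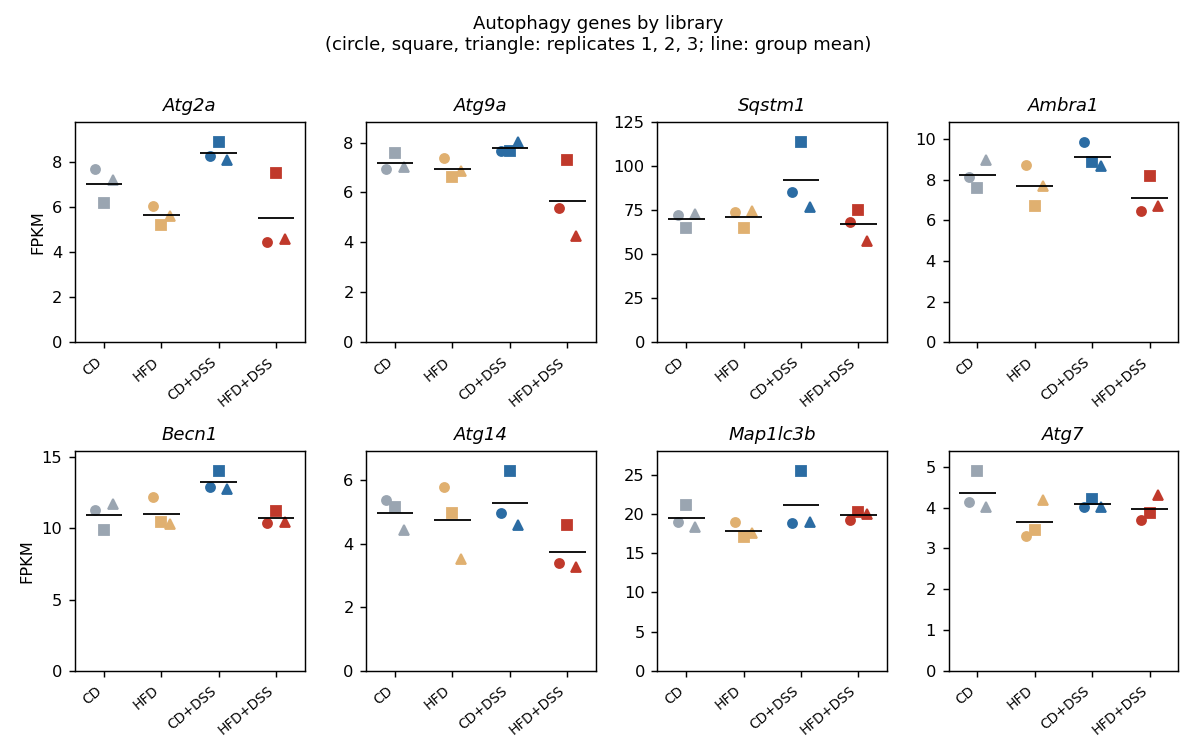
FPKM (vertical axis, from 0) of 8 autophagy genes in the 4 groups (horizontal axis), 1 point per library and a line at the group mean. Becn1 was at 12.7 to 14.0 in CD+DSS and 10.4 to 11.2 in HFD+DSS, while Map1lc3b and Atg7 overlapped between these groups.

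Lysosome and stress-response genes leaned the same way. Of 27 lysosomal genes, 23 were negative with a median of -0.18, and 3 lower members did not overlap, against 6.08% of all genes. The protease gene Ctsd (cathepsin D) was at 85.4, 96 and 81.2 in CD+DSS against 54.6, 70.4 and 66.6 in HFD+DSS (-0.45 ± 0.18). The list median was -0.095 without HFD+DSS replicate 3 and -0.29 without CD+DSS replicate 3, and -0.10 with array weights. Of 27 genes of the unfolded protein response, 24 were negative (median -0.10), among them Eif2ak3, the stress kinase PERK, at 11.6, 10.2 and 10.8 in CD+DSS against 7.86, 9.76 and 5.94 in HFD+DSS (-0.44 ± 0.15). The median ran from -0.24 (without HFD+DSS replicate 1) to -0.033 (without HFD+DSS replicate 3) when 1 library was left out, and was -0.17 with array weights. Of 24 hypoxia and glycolysis genes, 20 were negative (median -0.16), with medians of -0.33 (without HFD+DSS replicate 1) to -0.079 (without CD+DSS replicate 2) when 1 library was left out. Ndrg1, a hypoxia-induced gene, was at 31.1, 77.1 and 46 in CD+DSS against 17.7, 30.9 and 18.4 in HFD+DSS (-1.11 ± 0.33), the phosphofructokinase gene Pfkl at 30.5, 45.5 and 35.3 in CD+DSS against 19, 28.4 and 26 in HFD+DSS (-0.58 ± 0.23, Hox-adjusted -0.30) and the glucose transporter gene Slc2a1 at 44.9, 74.5 and 60.8 in CD+DSS against 46.7, 43.7 and 26.8 in HFD+DSS (-0.62 ± 0.24, Hox-adjusted -0.31). CD+DSS replicate 2 was the highest library in all 3.

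Lipid genes, which a high-fat diet is known to induce, had no shared direction between the diets under DSS. Of 35 fatty acid oxidation and PPAR target genes tested, 14 were higher and 21 lower in HFD+DSS, with a median of -0.039. Angptl4, a secreted inhibitor of lipoprotein lipase and a PPAR target, was higher without overlap at 3.27, 4.10 and 5.45 in CD+DSS against 6.74, 8.51 and 9.87 in HFD+DSS (0.84 ± 0.31), and the acyl-CoA thioesterase gene Acot2 was at 1.93, 4.72 and 2.38 in CD+DSS against 4.42, 4.28 and 5.65 in HFD+DSS (0.58 ± 0.23). Pparg itself, the fatty acid receptor of colonocytes, was lower at 29.2, 69.1 and 36.6 in CD+DSS against 26.6, 26.8 and 17.9 in HFD+DSS (-0.82 ± 0.30, Hox-adjusted -0.45). Without CD+DSS replicate 2, the library with the highest Pparg, 25 of the 35 genes were higher. The list median ran from -0.17 (without CD+DSS replicate 3) to 0.18 (without CD+DSS replicate 2) when 1 library was left out, and was -0.021 in the Hox-adjusted fit and 0.20 with array weights.

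Sterol exporters were higher in HFD+DSS. Abcg5 was at 0.498, 1.80 and 1.24 in CD+DSS against 5.29, 3.36 and 3.15 in HFD+DSS (1.20 ± 0.42) and its partner Abcg8 at 0.439, 0.850 and 0.483 in CD+DSS against 1.52, 1.47 and 1.26 in HFD+DSS (0.61 ± 0.20), both without overlap at low levels. They form 1 transporter that returns plant sterols and cholesterol to the lumen. Of 22 cholesterol synthesis genes, 15 were higher (median 0.11), with medians of 0.042 (without CD+DSS replicate 1) to 0.20 (without CD+DSS replicate 2) when 1 library was left out. Of 15 fatty acid synthesis genes 9 were higher (median 0.11), but only 4 in the Hox-adjusted fit. Their median ran from 0.0016 (without CD+DSS replicate 2) to 0.21 (without HFD+DSS replicate 1) when 1 library was left out, and was -0.11 in the Hox-adjusted fit.

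Bile acid genes were 4 positive and 4 negative of 8 tested, with a median of 0.016. That median ran from -0.19 (without CD+DSS replicate 1) to 0.37 (without CD+DSS replicate 2) when 1 library was left out, and was 0.24 in the Hox-adjusted fit and 0.26 with array weights. Fabp6, the bile acid carrier of ileal cells, was at 10.5, 10.7 and 3.92 in CD+DSS against 10.7, 23.4 and 28.4 in HFD+DSS (1.22 ± 0.64, Hox-adjusted 0.35), and the bile acid receptor gene Nr1h4 overlapped at 47.5, 110.4 and 54.4 in CD+DSS against 61.9, 69.9 and 55.6 in HFD+DSS (-0.083 ± 0.32, Hox-adjusted 0.27). Its target hormone gene Fgf15 did not reach the minimum level. Of 24 xenobiotic enzymes, 18 were lower (median -0.33), such as the cytochrome gene Cyp2s1 at 19.7, 43.1 and 17 in CD+DSS against 6.33, 15.6 and 12.9 in HFD+DSS (-1.09 ± 0.36) and the carboxylesterase gene Ces1f at 28.5, 50.5 and 26.2 in CD+DSS against 16.5, 22.7 and 13.6 in HFD+DSS (-0.93 ± 0.37, Hox-adjusted -0.57). The alcohol dehydrogenase gene Adh1 was higher at 67.2, 52.9 and 31.9 in CD+DSS against 73.6, 118 and 181 in HFD+DSS (1.24 ± 0.53, Hox-adjusted 0.054). The median was -0.50 without CD+DSS replicate 3, -0.044 without CD+DSS replicate 2, -0.048 without HFD+DSS replicate 3 and 0.20 with array weights.

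Several of the largest differences between the diets were in genes that shared the library pattern of Hoxb13. Tgm3, a transglutaminase of surface epithelium, was at FPKM 57.4, 0.0717 and 0.227 in CD+DSS against 286, 91.2 and 100.001 in HFD+DSS (5.03 ± 1.67, Hox-adjusted 0.30). Mptx1, a secreted pentraxin gene singled out after its values were seen, was at 231, 1.76 and 0.420 in CD+DSS against 181, 126 and 224 in HFD+DSS (4.16 ± 1.45, Hox-adjusted 1.61), and the colonic proton pump gene Atp12a at 44, 0.295 and 0.801 in CD+DSS against 267, 45.1 and 43.1 in HFD+DSS (4.11 ± 1.49, Hox-adjusted 0.20). As with Hoxb13, CD+DSS replicate 1 was the closest to HFD+DSS, and CD+DSS replicates 2 and 3 were near 0. Insl5, a hormone of colonic L cells, was at 51, 2.25 and 2.13 in CD+DSS against 113, 36.3 and 33.4 in HFD+DSS (2.70 ± 1.03, Hox-adjusted 0.18), Casp14, a protease gene of terminal differentiation, at 1.1, 0 and 0 in CD+DSS against 7.61, 4.44 and 6.02 in HFD+DSS (2.43 ± 0.72, Hox-adjusted 0.59), and the transporter gene Slc37a2 at 4.63, 0.379 and 0.515 in CD+DSS against 30.2, 14.3 and 7.35 in HFD+DSS (2.80 ± 1.07, Hox-adjusted 0.10). Fxyd4, a regulator of the sodium pump, was at 0.0900, 0.114 and 0.0343 in CD+DSS against 10.4, 1.87 and 4.55 in HFD+DSS (2.39 ± 0.68, Hox-adjusted 1.17). CD+DSS was near 0 throughout, replicate 1 included, so Fxyd4 did not share the Hoxb13 pattern within CD+DSS. Each of these 7 was nearer 0 in the Hox-adjusted fit. That is no separate evidence, since Hoxb13, whose pattern grouped all of them but Fxyd4, is part of the covariate. Without CD+DSS replicate 1, the library that resembled the other diet, Mptx1 was 6.45 and passed (limma adjusted p = 0.00551). The calcium-binding gene S100g did not follow the Hoxb13 pattern within CD+DSS either, at 21.4, 49.5 and 3.49 in CD+DSS against 179, 52 and 195 in HFD+DSS (2.84 ± 1.28).

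Muscle, nerve and glia genes were higher in HFD+DSS, most of all in 1 library. All 14 smooth muscle markers had a positive difference (median 0.87), as had all 15 enteric neuron markers (median 0.68) and 7 of 8 glial markers (median 0.45). The actin-binding gene Tpm2 was at 95, 55.9 and 55.8 in CD+DSS against 104, 88.9 and 269 in HFD+DSS (1.01 ± 0.39) and the filament gene Synm at 16.1, 6.88 and 7.38 in CD+DSS against 19.2, 13.5 and 32.3 in HFD+DSS (1.04 ± 0.42). HFD+DSS replicate 3 stood far above the other libraries in both. Without it the medians were 0.37 for smooth muscle, 0.12 for neurons and 0.11 for glia, and with array weights 0.31, 0.065 and 0.059. The neuron median was 1.06 without HFD+DSS replicate 2. Tac1, the precursor of substance P, differed in another way, at 5.63, 5.34 and 5.40 in CD+DSS against 56, 8.26 and 18.5 in HFD+DSS (1.75 ± 0.48), with HFD+DSS replicate 1 highest. The neuronal RNA-binding gene Elavl4 was at 1.37, 0.784 and 0.821 in CD+DSS against 2.92, 1.49 and 2.97 in HFD+DSS (0.78 ± 0.25, Hox-adjusted 0.40), the growth-cone gene Stmn2 at 3.03, 3.21 and 2.44 in CD+DSS against 6.25, 3.20 and 10.7 in HFD+DSS (0.87 ± 0.30), and the glial gene Cdh19 at 0.631, 0.710 and 0.971 in CD+DSS against 1.91, 1.01 and 3.07 in HFD+DSS (0.71 ± 0.24). Tagln, a smooth muscle protein gene, was low but without overlap at 0.945, 0.783 and 1.15 in CD+DSS against 2.37, 2.07 and 1.87 in HFD+DSS (0.67 ± 0.22, Hox-adjusted 0.37). Within HFD+DSS it was lowest in replicate 3, where Tpm2 and Synm were highest, so it did not track them. The amount of muscle wall in each sample was not tested as a cause of these or other differences.

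Among the 12 higher genes of smallest p, several are expressed outside the epithelium. Ptn, the growth factor pleiotrophin (ENSMUSG00000029838, chromosome 6, 36714929 to 36810220), was at 4.84, 3.11 and 3.12 in CD+DSS against 10.8, 7.36 and 12.2 in HFD+DSS, a difference of 1.24 ± 0.25 (limma, adjusted p = 0.614). Pcp4l1, a calmodulin-regulator-like gene, was at 26.5, 15.4 and 19.3 in CD+DSS against 36.9, 28.9 and 45.5 in HFD+DSS (0.84 ± 0.22). The epithelial amino acid transporter gene Slc7a9 was at 1.47, 3.99 and 2.68 in CD+DSS against 12.3, 6.35 and 6.05 in HFD+DSS (1.31 ± 0.36), and the brush-border aminopeptidase gene Enpep at 3.31, 4.08 and 5.40 in CD+DSS against 7.96, 6.39 and 7.64 in HFD+DSS (0.68 ± 0.19). The remaining ones were smaller: Tmem64 (0.68 ± 0.19, Hox-adjusted 0.39), Tcf19 (0.61 ± 0.17) and the splicing-related Rbmx (0.48 ± 0.13). No overlap between the groups was found in any of the 12. Among the 8 largest lower differences without overlap were the matricellular gene Ccn3 at 57.2, 35.4 and 45.8 in CD+DSS against 9.99, 28.5 and 6.57 in HFD+DSS (-1.78 ± 0.57) and the microRNA gene Mir3058 at 7.10, 5.70 and 3.68 in CD+DSS against 0, 3.09 and 0 in HFD+DSS (-1.99 ± 0.54), a short locus for which these mRNA libraries give no level of mature microRNA.

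Cycling-cell genes were higher in HFD+DSS in 25 of 26 members, with a median of 0.40. In 0 of the 26 did the groups not overlap, against 9.51% of all genes in either direction. The mitotic survival gene Birc5 was at 6.54, 5.23 and 7.80 in CD+DSS against 10.2, 7.61 and 9.07 in HFD+DSS (0.41 ± 0.18, Hox-adjusted 0.22), and the replication helicase subunit gene Mcm7 at 8.55, 6.26 and 12.3 in CD+DSS against 14, 10.5 and 12.5 in HFD+DSS (0.44 ± 0.20). CD+DSS replicate 2 was the lowest library in both. Without it 18 of 26 were higher with a median of 0.12; the median was 0.15 in the Hox-adjusted fit, 0.13 with array weights and 0.22 without HFD+DSS replicate 1. Of 16 stem and crypt-base genes 11 were higher (median 0.086), led by the replication-linked gene Cdca7 at 10.7, 11.7 and 15.3 in CD+DSS against 21.7, 14.1 and 24.3 in HFD+DSS (0.61 ± 0.20). The higher ones were 7 of 16 without CD+DSS replicate 2 and 8 without HFD+DSS replicate 3, and the median ran from -0.07 (without CD+DSS replicate 2) to 0.21 (without CD+DSS replicate 3) when 1 library was left out, and was 0.04 with array weights.

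Enteroendocrine genes were 9 positive and 6 negative of 15 (median 0.15), with medians of 0.023 (without CD+DSS replicate 3) to 0.25 (without CD+DSS replicate 1) when 1 library was left out, and 0.25 in the Hox-adjusted fit. The appetite hormone gene Pyy was at 88.5, 62 and 27.4 in CD+DSS against 166, 87.2 and 105 in HFD+DSS (1.1 ± 0.40, Hox-adjusted 0.47) and the secretory granule chaperone gene Scg5 at 2.77, 2.03 and 2.65 in CD+DSS against 5.52, 2.87 and 6.78 in HFD+DSS (0.74 ± 0.22, Hox-adjusted 0.45). Mitochondrially encoded genes had a median of 0.49 (11 of 13 positive), which ran from 0.22 (without HFD+DSS replicate 1) to 0.76 (without HFD+DSS replicate 2) when 1 library was left out, and was 0.12 in the Hox-adjusted fit and 0.23 with array weights. The nuclear-encoded respiratory chain had a median of -0.12, with 30 of 36 negative, which ran from -0.21 (without CD+DSS replicate 3) to 0.015 (without CD+DSS replicate 2) when 1 library was left out, and was -0.04 with array weights. Adipocyte markers were positive in 10 of 11 (median 0.31), but the median ran from -0.27 (without HFD+DSS replicate 2) to 0.98 (without HFD+DSS replicate 1) when 1 library was left out, and was 0.76 with array weights. Their summed FPKM was 119, 75.5 and 153 in CD+DSS against 51.9, 241 and 124 in HFD+DSS, so a single library was high. Plin4, a lipid droplet gene, was at 2.26, 1.47 and 2.75 in CD+DSS against 2.67, 5.10 and 7.28 in HFD+DSS (0.87 ± 0.33), and the gluconeogenic gene Pck1, the lower one of the list, at 26.8, 36.2 and 21.2 in CD+DSS against 7.19, 26.3 and 10.8 in HFD+DSS (-1.04 ± 0.41, Hox-adjusted -0.57).

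**Figure D4:**
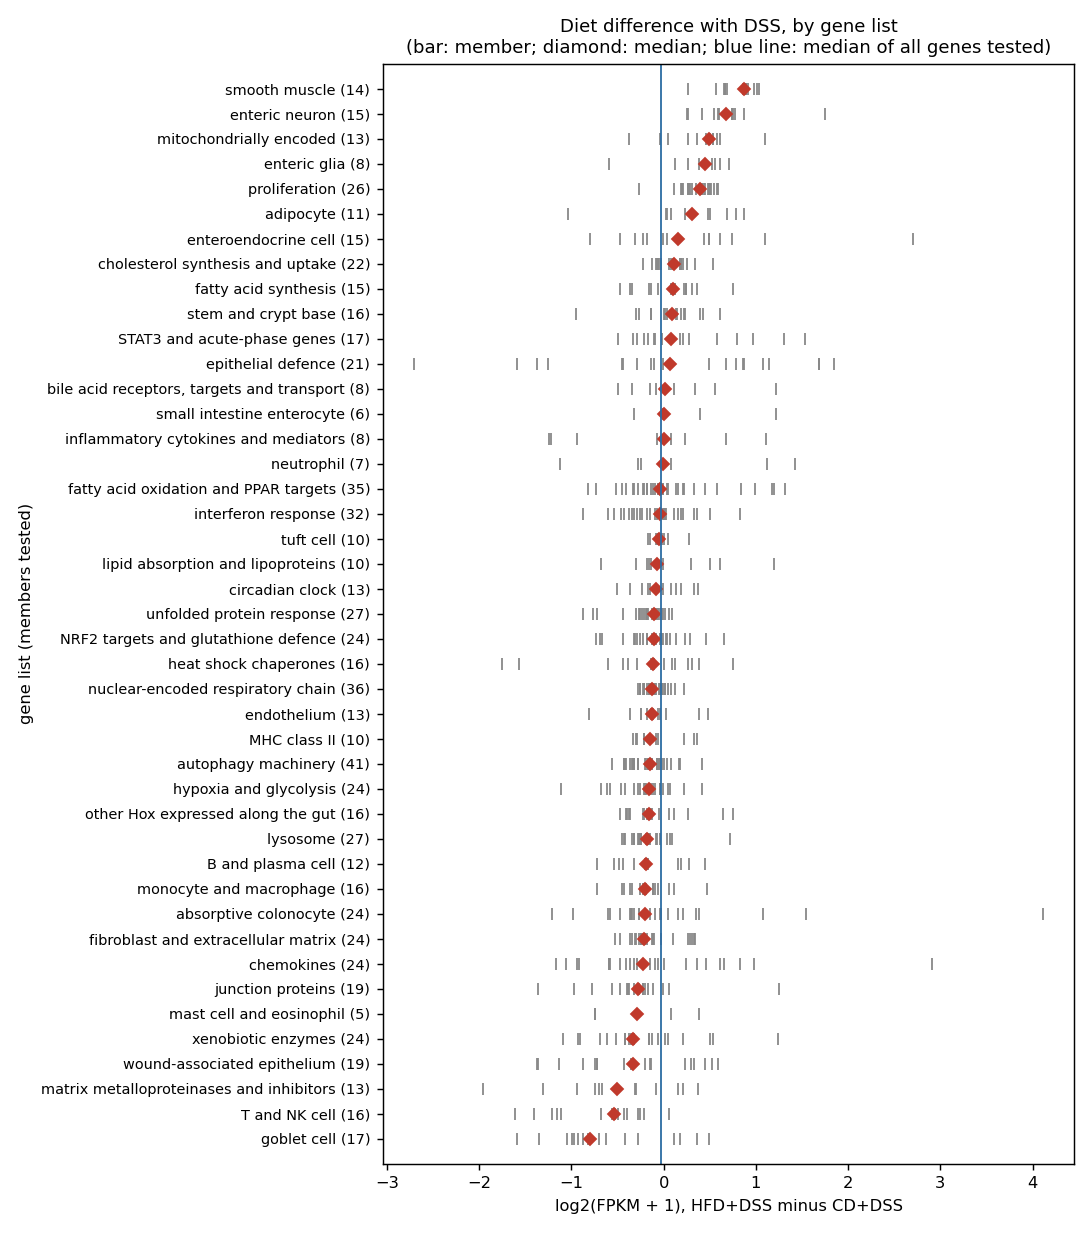
Differences between HFD+DSS and CD+DSS on the log2(FPKM + 1) scale (horizontal axis) for the tested members of each gene list with at least 5 (vertical axis, number tested in brackets). Bars are members, diamonds the list medians, and the blue line the median of all genes, -0.033; medians ran from -0.80 for goblet cells to 0.87 for smooth muscle.

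The diet difference was set beside the one without DSS, which shares no library with it. No gene passed the limma test for HFD against CD without DSS, 0% of 13232, and voom called 0. Unadjusted p was under 0.05 in 533 genes. The interaction, the diet difference with DSS minus that without, also gave 0 genes, 0% of 13232, and the smallest adjusted p was 0.163. Unadjusted p was under 0.05 in 707 genes, and voom called 0. Array weights called 16 genes with DSS, 163 without DSS and 23 for the interaction. A different diet effect with DSS was thus not established for any gene in the fit as designed.

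Cytotoxic genes had opposite values with and without DSS. All 16 T and NK cell markers were higher in HFD than in CD without DSS (median 0.65), while 15 were lower in HFD+DSS than in CD+DSS. Nkg7 was at 3.66 ± 2.06 (SD, n = 3) in CD, 10.5 ± 1.98 in HFD, 9.48 ± 1.87 in CD+DSS and 3.55 ± 0.890 in HFD+DSS, with diet differences of 1.38 ± 0.28 and -1.21 ± 0.28 and an interaction of -2.59 ± 0.39 (limma adjusted p = 0.163). Without CD replicate 3, which had the highest Nkg7 of its group, the interaction was -2.93 and passed (limma adjusted p = 0.00621), and with array weights it was -2.77 (limma adjusted p = 0.00867). The interaction of Gzma was -3.17 ± 0.66 and that of Cd8a -1.97 ± 0.42, with limma adjusted p of 0.561 and 0.561. With array weights the interactions of Gzma (-3.41, limma adjusted p = 0.0346), Gzmb (-3.50, 0.0411) and Ccl4 (-1.62, 0.0471) passed too.

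Secreted phospholipases and a sialyltransferase gave the reverse. Pla2g2f was at 14.7, 12.3 and 14 in CD and 1.53, 1.86 and 3.78 in HFD without DSS. With DSS it was at 8.15, 3.22 and 5.52 in CD+DSS against 7.90, 7.40 and 12.7 in HFD+DSS, with an interaction of 2.84 ± 0.43 (limma adjusted p = 0.163) that passed with array weights, at 2.60 (limma adjusted p = 0.00867). Pla2g5 had diet differences of -1.23 ± 0.24 without and 0.40 ± 0.24 with DSS, and Pla2g2a of -1.78 ± 0.45 and 1.85 ± 0.45. With DSS the Hox-adjusted values of Pla2g2f, Pla2g5 and Pla2g2a were -0.015, -0.088 and 1.16. The 3 genes are neighbours on chromosome 4, and the annotation of Pla2g5 spans that of Pla2g2a, so reads of these 2 may be shared. St3gal6, which adds sialic acid to glycans, was lower in HFD than in CD by the values 11.1 ± 3.19 against 25.2 ± 4.19 (SD, n = 3), and higher in HFD+DSS at 8.26, 4.60 and 6.06 in CD+DSS against 13.1, 10.1 and 9.11 in HFD+DSS (0.70 ± 0.25, Hox-adjusted 0.27). Its interaction was 1.84 ± 0.35 (limma adjusted p = 0.432), and 1.58 with array weights (limma adjusted p = 0.0411). Posterior Hox levels were themselves opposite, with Hoxb13 differing by -3.61 ± 1.23 without and 3.78 ± 1.23 with DSS, and their part in these interactions was not tested.

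Lipid-related lists differed in which setting had the higher median. Fatty acid oxidation and PPAR targets had 0.45 without DSS with 34 of 35 positive and -0.039 with DSS. Cholesterol synthesis genes went the other way, with -0.21 without DSS and 2 of 22 positive, against 0.11 with DSS, as did fatty acid synthesis genes with -0.068 and 0.11. Bile acid genes had 1.01 with 8 of 8 positive, and 0.016. Adipocyte markers had 1.51 and 0.31, and xenobiotic enzymes 0.42 and -0.33. Angptl4 was higher on the diet without overlap in both, with differences of 1.64 ± 0.31 and 0.84 ± 0.31, as was Slc7a9 with 1.08 ± 0.36 and 1.31 ± 0.36 and Enpep with 0.90 ± 0.19 and 0.68 ± 0.19. Autophagy genes had a median of -0.031 without DSS, with 18 of 41 positive. Some lists leaned lower on the diet in both settings. Without DSS, unfolded protein response genes had a median of -0.14 (3 of 27 positive), lysosomal genes -0.14 (5 of 27) and goblet genes -0.26 (2 of 17). No list was tested for a difference between the 2 settings.

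**Figure D5:**
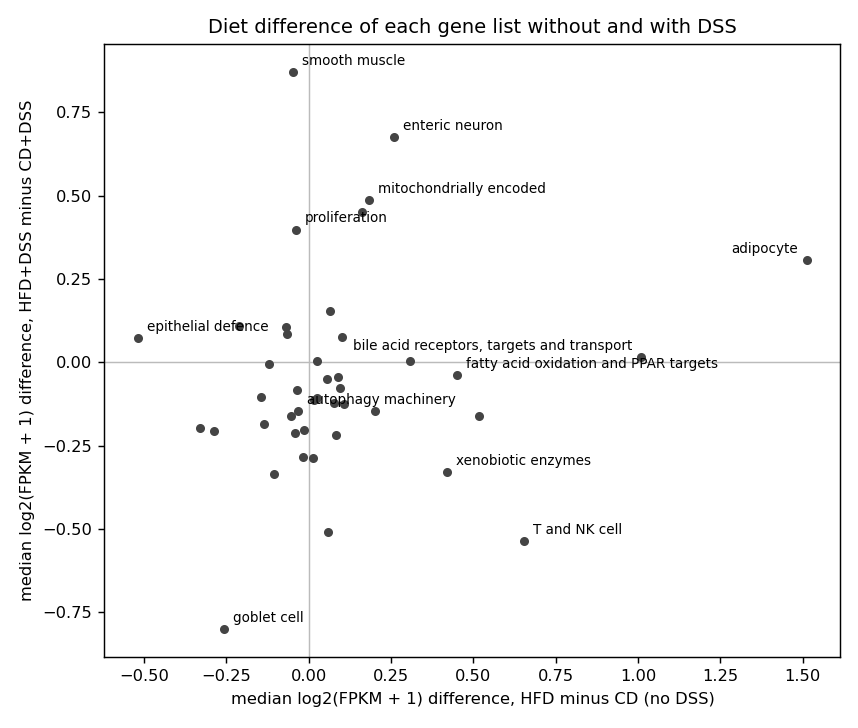
Median difference of each gene list without DSS (HFD minus CD, horizontal axis) and with DSS (HFD+DSS minus CD+DSS, vertical axis), both on the log2(FPKM + 1) scale, 1 point per list with at least 5 tested members. T and NK cell markers lay at 0.65 and -0.54, adipocyte markers at 1.51 and 0.31, and smooth muscle at -0.049 and 0.87.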

How the data were processed

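Colon mRNA was profiled in 12 mouse samples in 4 groups of 3 (CD, HFD, CD+DSS, HFD+DSS), grouped by treatment label. The authors deposited 1 table of FPKM values for 54532 genes, aligned to mm10 per the submitters' processing notes. Which aligner, counter and annotation they used is not given in the sources used here. Per the labels, libraries came from a SMARTER mRNA-Seq kit, whose strand handling is not stated, so overlapping genes cannot be separated. GENCODE M21 gave symbols and mm10 coordinates (54495 genes matched). In each library 97.0% to 97.2% of values were whole fragments within 0.1 once multiplied by exon length and a library size, which gave the recovered fragments.

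The genes that reached FPKM 1 in 3 or more of the 6 DSS samples were tested with limma 3.58.1 (R 4.3.3; lmFit, contrasts.fit, eBayes with trend) on log2(FPKM + 1), with 1 mean per group over all 12 samples. Calls needed a Benjamini-Hochberg adjusted p under 0.05. Adjusted and unadjusted p-values with 3 samples a group come from this fit. The script was tested on simulated data.

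The samples compared and the 48 gene lists (953 entries, 782 tested) were chosen with earlier results of these data known. Genes were named by rule: the 12 smallest p in each direction and the 8 largest non-overlapping differences in each direction (mean FPKM of 5 or more in the higher group, no predicted genes, pseudogenes or receptor segments), up to 3 members of each list by p (6 for autophagy), the 6 smallest interaction p, and 15 genes fixed by name (4 Hox, 6 autophagy, 3 cytokine and 2 bile acid genes). The 17 genes named outside it, chosen after their values were seen, were Mptx1, Spdef, Agr2, Zg16, Itln1, Muc1, Cldn8, Ccl5, Reg3g, Lcn2, Hsph1, Dnajb1, Fcgbp, Tff3, Atg12, Atg4a and Atg4d. Alternatives were other pseudocounts, filters, scalings, covariates, weights, voom and leaving out each sample. A few genes that the rule names are not reported here.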

Additional observations from a re-analysis of the deposited data

Results flagged for a closer look

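In 11 of the genes named, the diet difference had opposite signs with and without DSS and the groups did not overlap in either setting. Many named genes were picked for small p, lack of overlap or small interaction p, so this count is no rate. With DSS, 9.51% of all 13232 genes did not overlap, and the share that did so in both settings with opposite signs was not counted. The difference of the differences was tested with limma in each of the 11, and none passed in the fit as designed. On the log2 scale, the interaction was positive in Hoxb13 (7.39), Pla2g2a (3.63), Wfdc18 (2.12), St3gal6 (1.84) and Cd14 (0.99), all of which were lower in HFD than in CD and higher in HFD+DSS than in CD+DSS. It was negative in Gzma (-3.17), Nkg7 (-2.59), Ndrg1 (-1.99), Cd8a (-1.97), Ccl4 (-1.80) and Ccl9 (-1.25), which were higher in HFD than in CD and lower in HFD+DSS than in CD+DSS. The limma adjusted p of these interactions ran from 0.163 (Nkg7) to 0.689 (Ccl9). With array weights the interaction passed in 4 of the 11: Nkg7 (-2.77, limma adjusted p = 0.00867), Gzma (-3.41, 0.0346), St3gal6 (1.58, 0.0411) and Ccl4 (-1.62, 0.0471). That of Nkg7 passed also without CD replicate 3 (-2.93, limma adjusted p = 0.00621).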

How the results depend on the processing

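The counts of called genes were 0 in each of the 3 comparisons under other pseudocounts, TPM and upper-quartile scaling, the 6 DSS samples alone (fitted for the first comparison), the posterior Hox covariate, the replicate block and voom. Without a filter on low values limma called 2 genes between HFD+DSS and CD+DSS and 1 for the interaction. Array weights called 16 genes with DSS, 163 without DSS and 23 for the interaction, among the 16 Hspa1a (-2.09) and Hspa1b (-2.12). Leaving out 1 library gave 0 to 1 called genes with DSS, 0 to 3 without DSS and 0 to 3 for the interaction, with Mptx1 at 6.45 without CD+DSS replicate 1. The cause was not tested. Of 127 genes named, 110 kept their direction under all 22 alternatives. Several of these could not have changed it. Leaving out a sample without DSS, fitting the 6 DSS samples alone, the replicate block and dropping the filter leave each gene's difference as it was. Many genes were also named for small p or for lack of overlap. A gene without overlap keeps its sign when 1 library is left out, so the count of 110 is no measure of how stable the differences are. With the posterior Hox covariate the sign was reversed in Hoxa13 (-0.44), Hoxb6 (0.96), Map1lc3b (0.0056), Nr1h4 (0.27), Pla2g2f (-0.015), Pla2g5 (-0.088), Zg16 (-0.057), Itln1 (0.11), Cldn8 (-0.036) and Fcgbp (-0.28). Array weights reversed Hoxa13 (-0.15), Hoxb6 (0.031), Hspb8 (-0.011), Map1lc3b (0.039), Atg16l1 (-0.071) and Nr1h4 (0.30), and Atg7 was 0.021 under upper-quartile scaling and 0.020 with voom. Leaving out 1 library moved Hoxa13 from -0.33 to 1.07, Hoxb6 from -0.65 to 0.24, Tnf from -0.25 to 0.41, Map1lc3b from -0.14 to 0.065, Atg5 from -0.35 to 0.052, Atg7 from -0.088 to 0.0016, Atg16l1 from -0.12 to 0.11, Nr1h4 from -0.31 to 0.29, Reg3g from -0.12 to 1.42, Lcn2 from -0.77 to 0.15 and Fcgbp from -0.15 to 0.56. Same-numbered samples of the 2 DSS groups did not all deviate together (r of 0.14, -0.14 and -0.068 across genes, which are not independent replicates), and not every sample correlated best with its own number. The replicate block left 0 called genes in each comparison, with 732 at an unadjusted p under 0.05 between HFD+DSS and CD+DSS. List values under array weights, other scalings and voom were chosen after seeing the data. With 3 libraries a group and no count table, depth was known only from recovered fragments.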

Other observations

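Cell types and pathways not described above had medians of either sign between HFD+DSS and CD+DSS. For comparison, 7388 of all 13232 genes had a negative difference. The 24 absorptive colonocyte markers were 8 positive and 16 negative (median -0.21), with medians of -0.40 (without HFD+DSS replicate 1) to 0.013 (without HFD+DSS replicate 3) when 1 library was left out, and -0.36 in the Hox-adjusted fit and -0.08 with array weights. The 24 fibroblast and matrix genes were 6 positive and 18 negative (median -0.21), with medians of -0.56 (without CD+DSS replicate 2) to 0.053 (without CD+DSS replicate 3) when 1 library was left out. Endothelial markers were 3 positive and 10 negative (median -0.12), a median that ran from -0.42 (without CD+DSS replicate 2) to 0.024 (without CD+DSS replicate 1) when 1 library was left out, and was 0.0024 with array weights. Tuft cell markers were 2 positive and 8 negative (median -0.05), with medians of -0.12 (without HFD+DSS replicate 2) to 0.064 (without HFD+DSS replicate 1) when 1 library was left out, and 0.27 in the Hox-adjusted fit and 0.048 with array weights. Mast cell and eosinophil markers were 2 positive and 3 negative (median -0.29), and their median ran from -0.31 (without CD+DSS replicate 1) to -0.012 (without HFD+DSS replicate 1) when 1 library was left out, and was -0.028 in the Hox-adjusted fit. The NRF2 targets, which answer oxidative stress, were 8 positive and 16 negative (median -0.11), with medians of -0.27 (without HFD+DSS replicate 1) to -0.031 (without CD+DSS replicate 2) when 1 library was left out, and -0.16 in the Hox-adjusted fit. Circadian clock genes were 5 positive and 8 negative (median -0.082), with medians of -0.16 (without CD+DSS replicate 3) to 0.083 (without CD+DSS replicate 2) when 1 library was left out, and 0.17 in the Hox-adjusted fit and 0.061 with array weights. Lipid absorption genes, typical of the small intestine, were 4 positive and 6 negative (median -0.078), with medians of -0.12 (without HFD+DSS replicate 1) to 0.11 (without HFD+DSS replicate 3) when 1 library was left out, and -0.005 in the Hox-adjusted fit and 0.074 with array weights. Small intestine enterocyte markers were 4 positive and 2 negative (median 0.004), with medians of -0.086 (without HFD+DSS replicate 1) to 0.31 (without CD+DSS replicate 1) when 1 library was left out, and 0.042 in the Hox-adjusted fit and 0.28 with array weights. Hox genes expressed further forward along the gut were 5 positive and 11 negative (median -0.16), but 10 were positive in the Hox-adjusted fit and 9 without HFD+DSS replicate 1. Their median ran from -0.37 (without HFD+DSS replicate 3) to 0.088 (without HFD+DSS replicate 1) when 1 library was left out, and was 0.18 in the Hox-adjusted fit and -0.092 with array weights. Of the red blood cell genes 3 could be tested, all positive (median 0.29), but all 3 were negative without HFD+DSS replicate 2 (-0.46) and 2 were so without CD+DSS replicate 1. Their summed FPKM was 11.5, 19.2 and 27.1 in CD+DSS against 15.5, 69.6 and 8.78 in HFD+DSS, so 1 library was high. The tested sex-specific genes numbered 4, the squamous epithelium genes 2 (median 0.42) and the exocrine pancreas genes 1 (0.38).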
